A study of Mus musculus with 12 samples.

Results

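The nuclear-encoded subunits of the mitochondrial respiratory chain and of ATP synthase were examined on 12 one-colour Agilent arrays of mouse pluripotent stem cells. Genes were chosen by name, as those starting with Ndufa, Ndufb, Ndufc, Ndufs, Ndufv, Uqcr, Cox4 to Cox8 or Atp5, together with Sdha to Sdhd. Of the 92 genes with such a name, 83 encode a subunit, and 81 of those had a probe well above background on all 12 arrays, out of 14765 genes tested. The brightest such probe stood for each gene. The 81 subunits comprised 36 of complex I, 4 of complex II, 8 of complex III, 18 of complex IV and 15 of complex V, where Ndufa4 and Ndufa4l2 were placed in complex IV. The remaining 9 names, the assembly factors Ndufaf1 to Ndufaf7 with Atp5s and Atp5sl, were kept apart.

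The study asked what the T-box transcription factor Tbx3 does in the network that keeps stem cells pluripotent. Mouse embryonic stem cells (mESC) were represented by 4 arrays of Tbx3-high cells and 4 of Tbx3-low cells. Induced pluripotent stem cells (iPSC), which are made by reprogramming, were represented by 2 arrays of Tbx3 null cells and 2 of Tbx3 wildtype cells. The sources used here do not give the strain, passage or culture conditions, the way in which Tbx3-high and Tbx3-low cells were obtained, or the part of Tbx3 removed by the null allele. All 8 mESC arrays lay on 1 slide and all 4 iPSC arrays on another, so cell type and slide cannot be told apart and no level is compared between them. Within each slide the Tbx3-low or wild-type samples filled columns 1 and 2 and the Tbx3-high or null samples columns 3 and 4, so group and slide column cannot be told apart either. Separate cultures are not named for the arrays of any group, and the p-values below therefore measure the spread between these arrays, which may be technical.

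Complex I, NADH dehydrogenase, and complex II, succinate dehydrogenase, feed electrons to ubiquinone. Complex III passes them to cytochrome c, and complex IV, cytochrome c oxidase, passes them to oxygen. Complexes I, III and IV pump protons across the inner mitochondrial membrane, and complex V, ATP synthase, uses the gradient to make ATP. A few core subunits are encoded by mitochondrial DNA, whereas the rest are nuclear and are assembled with them. Pluripotent stem cells draw on glycolysis as well as on respiration, and the balance is known to shift with their state. Several complex IV subunits exist as a widely expressed form and a tissue-restricted isoform.

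Promoter windows of the nuclear genes are shown first because NRF1, the ETS factor GABP and YY1 are known regulators of respiratory genes. The RefSeq table of GRCm38.p6 gave a window from 250 bases before to 50 bases after the start for 66 of the 81 subunits. The NRF1 core GCGCANGCG, searched on both strands, was present in 19 of the 66 windows (28.8%), against 6.47% of the 27025 windows in the table. The ETS core CCGGAAG was present in 15 (22.7%), against 9.12%, and the YY1 core AAGATGGCG in 6 (9.09%), against 1.49%. At least 1 of these motifs was found in 33 subunit windows (50.0%) and in 15.3% of all windows, and no matches of different motifs overlapped among the subunits. NRF1 cores were in 8 of 32 complex I windows, 2 of 3 of complex II, 2 of 5 of complex III, 1 of 12 of complex IV and 6 of 14 of complex V. A match describes the letters of the window only, not binding. The following 4 windows hold the 250 bases before the start, 5′ to 3′ on the gene's strand, with matches in capitals, for genes that differed between the groups in contrasting ways. Ndufb4 (chr16:37654369-37654618, minus strand) held 3 NRF1 cores, the first bases of which lie at -191, -79 and -22 relative to the start. Atp5e (chr2:174464102-174464351, minus strand) held the ETS core in reverse at -102. Ndufa1 (chrX:37191239-37191488, minus strand) and Cox7a1 (chr7:30183921-30184170, plus strand) held no match.
Ndufb4: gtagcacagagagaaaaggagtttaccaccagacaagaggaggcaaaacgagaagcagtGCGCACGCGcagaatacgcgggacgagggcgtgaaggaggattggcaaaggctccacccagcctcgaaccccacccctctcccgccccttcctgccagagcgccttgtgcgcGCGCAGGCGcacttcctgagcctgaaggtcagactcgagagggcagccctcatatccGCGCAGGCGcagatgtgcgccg
Atp5e: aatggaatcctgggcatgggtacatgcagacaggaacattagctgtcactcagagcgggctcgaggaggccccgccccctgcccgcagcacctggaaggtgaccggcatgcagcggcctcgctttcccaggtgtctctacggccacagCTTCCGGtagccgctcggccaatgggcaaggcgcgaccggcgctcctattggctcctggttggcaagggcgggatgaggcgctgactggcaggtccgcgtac
Ndufa1: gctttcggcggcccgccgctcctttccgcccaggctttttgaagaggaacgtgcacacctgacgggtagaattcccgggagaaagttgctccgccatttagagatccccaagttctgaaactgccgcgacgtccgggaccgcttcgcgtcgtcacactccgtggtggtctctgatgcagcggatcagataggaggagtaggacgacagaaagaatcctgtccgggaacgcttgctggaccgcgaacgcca
Cox7a1: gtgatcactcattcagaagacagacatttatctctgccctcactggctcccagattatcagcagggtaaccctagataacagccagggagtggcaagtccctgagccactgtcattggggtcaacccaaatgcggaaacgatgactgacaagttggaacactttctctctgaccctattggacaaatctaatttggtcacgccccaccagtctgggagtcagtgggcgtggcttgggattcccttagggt

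Levels are given as log2 of the processed signal minus the array's own 75th percentile, so that 0 is the 75th percentile, and changes as differences of group means on that scale with their standard error (SE). A gene was called where its adjusted p was under 0.05 (limma, Benjamini-Hochberg over all 14765 genes). The 75th percentile of the processed signal ranged from 313.8 to 457.7 on the mESC arrays and from 699.8 to 1007.4 on the iPSC arrays, and no spot was saturated. Spots well above background made up 55.9% to 64.81% of each mESC array, with the groups overlapping. They made up 63.0% and 62.42% on the arrays labelled Tbx3-null and 68.64% and 68.0% on the wild-type arrays. The only Tbx3 probe read 7.05, 7.07, 7.12 and 7.03 in Tbx3-high and 5.75, 5.76, 5.73 and 5.72 in Tbx3-low cells, a change of 1.33 ± 0.07 (SE; adjusted p = 7.26e-08). It read 5.51 and 5.48 on the null arrays and 4.996 and 5.35 on the wild-type arrays, so it was not lower on the arrays labelled Tbx3-null (0.32 ± 0.10, SE; adjusted p = 0.0246). After quantile scaling the iPSC change of this probe was 0.112 and not called (limma adjusted p = 0.385). Whether the probe lies in the deleted part is not given, so it does not check the null label. Every direction drawn from those arrays rests on that label. All 10 pluripotent cell markers, Pou5f1, Sox2 and Nanog among them, were well above background on all 12 arrays. In such bulk samples fewer cells of a type and less RNA per cell cannot be told apart.

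In the mESC comparison 21 of the 81 subunits were higher in Tbx3-high than in Tbx3-low cells and 1, Ndufa1, was lower. Higher calls made up 25.9% of the subunits against 19.8% of all genes, a share near the background, and lower calls 1.23% against 15.0% of all genes. The median change of the subunits was 0.12, that of all genes 0.04, and 58 of the 81 subunits lay above the all-gene median. Changes were small: apart from Cox7a1, Cox6b2 and Cox8c, no called change exceeded that of Ndufb4, 0.36 or 1.28-fold. The arrays of the groups did not overlap for 29 higher subunits, where 20.1% of all genes were so separated, and for 2 lower ones, against 15.3%. Leaving out Tbx3-high array 1 or Tbx3-low array 1 left 12 higher calls in each case, where 2532 and 2448 of all 14765 genes were called higher. Of the 22 calls 10 and 9 were then lost. Leaving out any other single mESC array lost 3 to 6 of them. The arrays lay in 2 slide rows, and row 1 alone gave 10 higher calls and row 2 alone 2, with median changes of 0.16 and 0.06. Over all 14765 genes the rows gave 1973 and 1774 higher calls. All 22 called changes kept their direction in each row, and 10 and 3 of them kept the call. Quantile scaling gave 18 higher and 1 lower subunit, against 18.3% and 17.8% of all genes. With the replicate number as a block there were 19 higher and 1 lower, against 20.8% and 15.9% of all genes. The summed level of 12 fibroblast markers, on the linear scale relative to the 75th percentile, was 127 to 164 in Tbx3-high and 79.9 to 84.9 in Tbx3-low cells, but Fn1 alone made up 122 to 147 and 73.4 to 77.8 of it. The other 11 summed to 4.82 to 29.5 and 6.45 to 7.57, where the highest value is a single Tbx3-high array with much Thy1. Without Thy1 as well, the sum was 2.92 to 3.52 in Tbx3-high and 4.26 to 5.50 in Tbx3-low cells, so it was lower in Tbx3-high cells. Of the 8 of those markers that were tested, Col1a1, Pdgfrb and Fn1 rose and Tagln fell, while Col3a1, Postn, Lum and Dcn were not well above background on every array. The summed pluripotent cell markers overlapped, at 625 to 704 and 602 to 684, with 4 of 10 called higher and 1 lower. The part of these markers in the subunit changes was not tested.

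**Figure D1:**
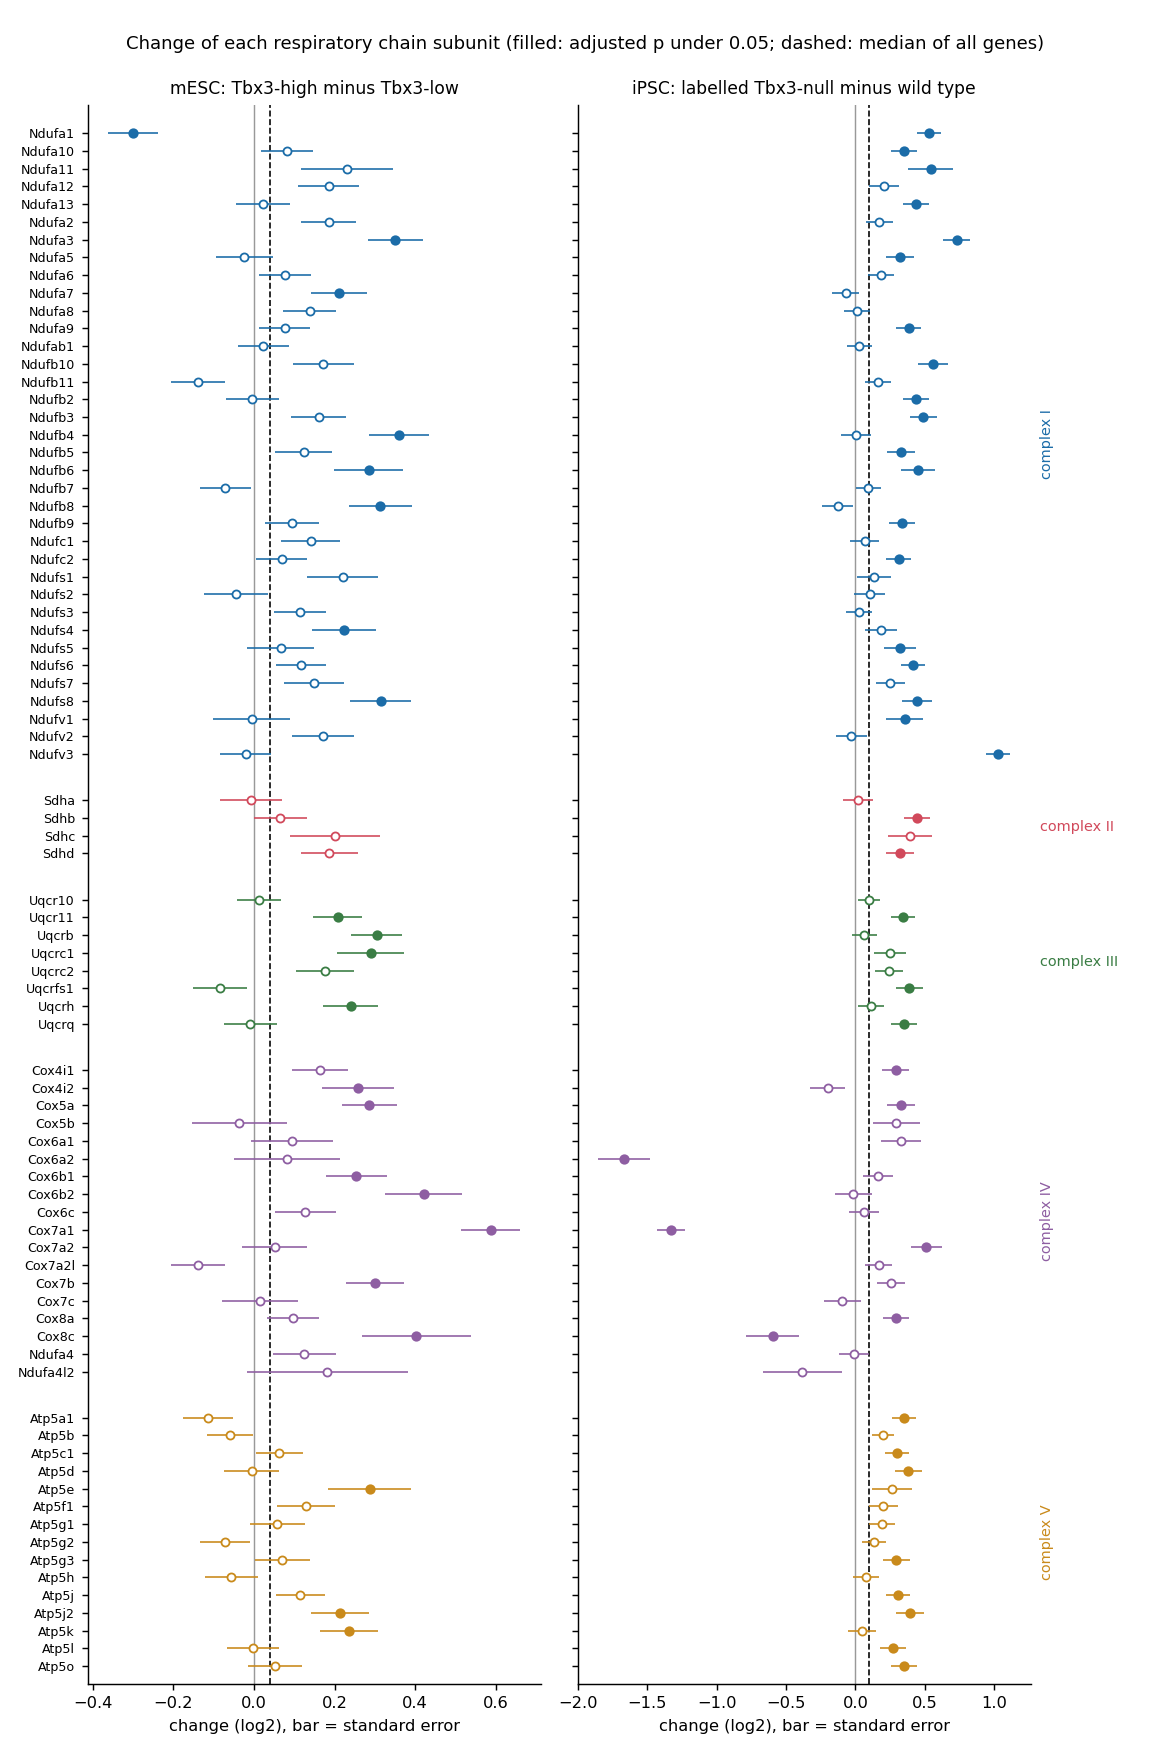
Change of each of the 81 subunits (log2; point: difference of group means, bar: standard error) in mESC (left, Tbx3-high minus Tbx3-low) and iPSC (right, labelled Tbx3-null minus wild type), with separate horizontal scales. Filled points have an adjusted p under 0.05 and the dashed line is the median of all genes, 0.04 on the left and 0.10 on the right; Cox7a1 is the highest point on the left and Ndufv3 on the right.

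Complex I contributed 7 higher subunits of 36 (19.4%) and the lower one. Ndufa1, a small accessory subunit of the membrane arm encoded on the X chromosome, is measured by a probe at X:34727627-34727686 (mm9). Its level was 6.03, 5.98, 6.03 and 6.08 in Tbx3-low cells and 5.77, 5.71, 5.69 and 5.77 in Tbx3-high cells. Every Tbx3-high array lay below every Tbx3-low array, and the level fell by 0.30 ± 0.06 (SE; 1.23-fold; adjusted p = 0.00262). It fell by 0.27 within slide row 1, where the adjusted p was 0.0827, and by 0.33 within row 2.

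Ndufb4, an accessory subunit of the same arm (16:37647711-37647770, mm9) whose window carries the 3 NRF1 cores shown above, had the largest complex I rise. It read 5.79, 5.86, 5.98 and 5.97 in Tbx3-low cells and 6.31, 6.37, 6.17 and 6.20 in Tbx3-high cells. The groups did not overlap, and the change was 0.36 ± 0.07 (SE; adjusted p = 0.00246). In slide row 2 alone it was 0.21 (adjusted p = 0.162). Among subunits called higher in mESC, 4 of 18 windows held an NRF1 core and 7 an ETS core. Among those called higher in iPSC, 10 and 7 of 32 windows did, and among all subunits 19 and 15 of 66. A link between motif and change was not tested.

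Among the 7 nuclear core subunits, which carry the flavin and iron-sulphur centres or bind quinone, only Ndufs8, an iron-sulphur subunit, was called in mESC. It read 2.74, 2.80, 2.90 and 2.85 in Tbx3-low cells and 3.04, 3.17, 3.25 and 3.07 in Tbx3-high cells, a change of 0.31 ± 0.08 (SE; adjusted p = 0.0069). The ranges did not touch. Ndufs4, an accessory subunit needed for assembly of the electron-input arm, changed by 0.22, a call that held in 3 of 19 alternative settings. The other accessory subunits called higher were Ndufa3 by 0.35, Ndufb8 by 0.31, Ndufb6 by 0.28 and Ndufa7 by 0.21, the last not called with the replicate number as a block (adjusted p = 0.058), nor was Ndufs4 (adjusted p = 0.0599). Ndufa7 was also lost without Tbx3-high array 1, 3 or 4 or Tbx3-low array 1 or 2 (0.18 to 0.22). These 4 with Ndufb4, Ndufs4 and the lower Ndufa1 made 7 of 29 accessory subunits. For Ndufa3 (7:3571695-3571754, mm9) the levels were 4.81, 4.81, 4.86 and 4.95 in Tbx3-low and 5.34, 5.19, 5.21 and 5.08 in Tbx3-high cells, with no overlap. A dimmer Ndufa3 probe at 7:3569447-3569506 changed by -0.10, and the mean of both probes gave 0.12 (adjusted p = 0.141).

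None of the 4 complex II subunits was called in mESC. The flavoprotein Sdha changed by -0.01, the iron-sulphur subunit Sdhb by 0.07, and the membrane anchors Sdhc and Sdhd by 0.20 and 0.19. Sdhc, the largest of these, read 4.27, 4.17, 4.73 and 4.43 in Tbx3-low cells and 4.62, 4.44, 4.72 and 4.62 in Tbx3-high cells (1:173059348-173059407, mm9). Its groups overlapped, because Tbx3-low array 3 was as high as the Tbx3-high arrays (0.20 ± 0.11, SE; adjusted p = 0.193). Its other, dimmer probe changed by 0.47, from 3.61 to 3.79 in Tbx3-low and from 4.08 to 4.24 in Tbx3-high cells, without overlap.

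In complex III, 4 of 8 subunits rose in Tbx3-high cells (50.0%): Uqcrb by 0.30, the core protein Uqcrc1 by 0.29, the hinge protein Uqcrh by 0.24 and Uqcr11 by 0.21. The other core protein, Uqcrc2, changed by 0.18, and the Rieske iron-sulphur protein Uqcrfs1 by -0.08, both uncalled. Uqcrb, which takes part in ubiquinone binding (13:67001654-67001713, mm9), read 5.47, 5.59, 5.49 and 5.55 in Tbx3-low cells and 5.92, 5.76, 5.80 and 5.84 in Tbx3-high cells. The groups were apart, with a change of 0.30 ± 0.06 (SE; adjusted p = 0.00277), and its 3 probes gave 0.26 to 0.31. Within slide row 1 and within row 2 its change was 0.31 and 0.30, with adjusted p of 0.0607 and 0.0535. The median level of the complex III subunits was 5.54 to 5.68 on the Tbx3-low and 5.82 to 5.93 on the Tbx3-high arrays, without overlap. For complex V it was 6.34 to 6.43 against 6.46 to 6.49, also without overlap, whereas the medians of complexes I, II and IV overlapped between the groups.

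**Figure D2:**
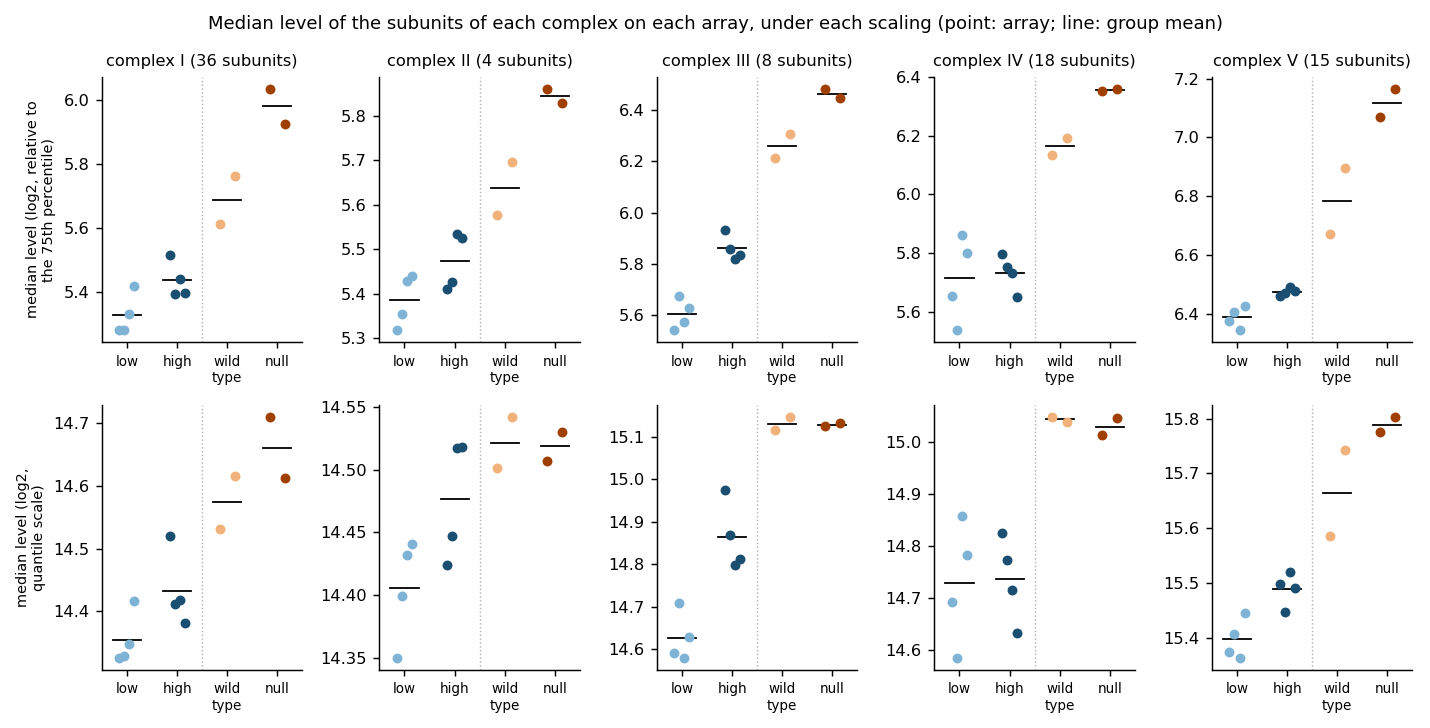
Median level of the subunits of each complex on each array (point: array; line: group mean), after 75th-percentile scaling (top) and quantile scaling (bottom), both log2; the vertical axes do not start at 0 and differ between panels. For complex III the Tbx3-high arrays lie above all Tbx3-low arrays under both scalings, whereas the higher complex III median of the arrays labelled Tbx3-null at the top, 6.48 and 6.45 against 6.21 and 6.31, is not seen at the bottom, 15.13 and 15.13 against 15.12 and 15.15.

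Complex IV had 7 higher subunits of 18 (38.9%), and 4 of these were tissue-restricted isoforms. Cox7a1, the heart and muscle isoform of subunit 7a, showed the largest change of any subunit in mESC. It read 2.68, 2.63, 2.70 and 2.85 in Tbx3-low cells and 3.47, 3.25, 3.25 and 3.24 in Tbx3-high cells (probe within 7:30970337-30970948, mm9). The groups did not overlap, Tbx3-high array 1 being the highest, and the change was 0.59 ± 0.07 (SE; 1.5-fold; adjusted p = 5.38e-05), 0.70 within slide row 1 and 0.47 within row 2. Cox6b2, the testis isoform of subunit 6b, rose by 0.42 and Cox4i2, an isoform described in lung and in low oxygen, by 0.26. Cox8c, a testis isoform of subunit 8, rose by 0.40 although its arrays overlapped, from -2.74 to -2.12 in Tbx3-low and from -2.12 to -1.79 in Tbx3-high cells. Leaving out Tbx3-high array 1 or 4 or Tbx3-low array 1 or 2 took its adjusted p to between 0.0688 and 0.0994, with changes of 0.29 to 0.40. The Cox4i2 call held in 6 of 19 alternative settings. After quantile scaling Cox7a1 and Cox6b2 were the isoforms still called. The widely expressed partners changed by 0.25 for Cox6b1, which was called, and by 0.05 for Cox7a2, 0.10 for Cox8a and 0.16 for Cox4i1, which were not. A dimmer Cox8a probe changed by 0.237, from 6.825 to 7.02 in Tbx3-low and from 7.122 to 7.175 in Tbx3-high cells, without overlap. The remaining calls were Cox7b by 0.30 and Cox5a by 0.29, both structural subunits. Cox7b2, the isoform of Cox7b, was among the members left out for low signal.

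Complex V had 3 higher subunits of 15, all of them small proteins. Atp5e, the epsilon subunit of the F1 head (2:174286656-174286715, mm9), whose window carries the ETS core, read 5.76, 5.86, 5.49 and 5.80 in Tbx3-low cells and 6.18, 6.18, 5.85 and 5.85 in Tbx3-high cells. Tbx3-high arrays 3 and 4 fell inside the Tbx3-low range, and the change was 0.29 ± 0.10 (SE; adjusted p = 0.0481). The call was lost without Tbx3-high array 1 or 2 or Tbx3-low array 1, 3 or 4, with changes of 0.21 to 0.31. Atp5j2 and Atp5k, membrane subunits f and e, rose by 0.21 and 0.24. The other 4 head subunits, Atp5a1, Atp5b, Atp5c1 and Atp5d, changed by -0.11 to 0.06, and the genes of the membrane ring, Atp5g1 to Atp5g3, by -0.07 to 0.07, none of them called.

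In the iPSC comparison 36 of the 81 subunits were higher on the arrays labelled Tbx3-null than on the wild-type arrays and 3 were lower. These were 44.4% and 3.70% of the subunits, against 26.3% and 16.8% of all genes. The median change was 0.26, that of all genes 0.10, and 59 of 81 subunits lay above the all-gene median. The arrays did not overlap for 56 higher and 4 lower subunits, where 44.6% and 28.3% of all genes were so separated. The excess of higher calls depended on the scaling: after quantile scaling 10 subunits were higher (12.3%) and 4 lower (4.94%), against 21.9% and 18.9% of all genes. The median change was then 0.06 against 0.04 for all genes, and 44 of the 81 subunits lay above the latter. In the deposited series table, whose scaling is not stated, 11 were higher (13.6%) and 7 lower (8.64%), with a median of 0.02. Of all 14765 genes 3217 were higher and 2936 lower there, with a median of 0.03. Each group had 2 arrays, and leaving out null array 1 left 23 higher calls and leaving out wild-type array 1 left 16, the lone array being assumed to vary like the other groups. Of the 39 calls 14 were lost without null array 1, 9 without null array 2, 21 without wild-type array 1 and 4 without wild-type array 2. Fitting the iPSC arrays by themselves gave 20 higher calls, where 3359 of all 14765 genes were called higher. The share of spots well above background, which was lower on the null arrays by the values given above, moves with this comparison, and its part was not tested. The summed fibroblast markers were 71.7 to 88.6 on the null and 105 to 116 on the wild-type arrays, again mostly Fn1 (66.0 to 83.5 and 100 to 111). The other 11 summed to 5.03 to 5.72 and 5.01 to 5.34, with overlap. Of the 8 tested, Col1a1, Pdgfrb and Fn1 fell and Tagln and Acta2 rose. The summed level of the 10 pluripotent cell markers was higher on the null arrays, at 703 to 729 against 607 to 625, and Dnmt3l, Lin28a and Fbxo15 rose. The part of these markers was not tested.

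**Figure D3:**
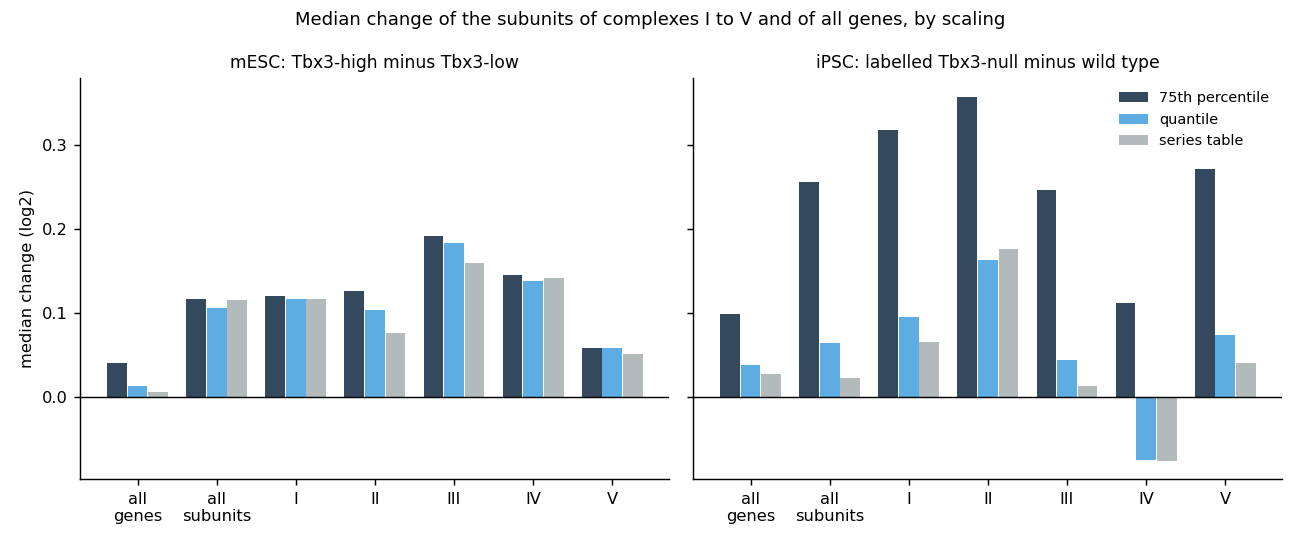
Median change (log2) of all genes, of the 81 subunits and of the subunits of complexes I to V under 3 scalings, in mESC (left) and iPSC (right), on 1 vertical scale with bars drawn from 0. The mESC medians differ little between scalings (all subunits 0.12, 0.11 and 0.12), whereas the iPSC median of all subunits is 0.26, 0.06 and 0.02, and that of complex IV is 0.11 after 75th-percentile and -0.08 after quantile scaling.

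Complex I had 19 higher subunits of 36 in iPSC (52.8%) and none lower, 17 of them among the 29 accessory subunits. Ndufv3, an accessory subunit next to the flavin site, showed the largest rise of any subunit. Its brightest probe (17:31668209-31668268, mm9) read 6.13 and 5.99 on the null arrays and 5.06 and 5.01 on the wild-type arrays, a change of 1.03 ± 0.09 (SE; 2.04-fold; adjusted p = 1.92e-06) and 0.84 after quantile scaling. In mESC the same probe did not separate the groups, at 5.19, 5.21, 5.25 and 5.34 in Tbx3-low and 5.24, 5.28, 5.22 and 5.16 in Tbx3-high cells (-0.02; adjusted p = 0.831). The 3 Ndufv3 probes disagreed. A probe at 17:31665148-31665207 changed by -0.13 in mESC and 0.40 in iPSC, and one at 17:31663758-31663817 by 0.57 in mESC and -0.17 in iPSC. This last probe read -1.21 to -0.91 in Tbx3-low and -0.53 to -0.46 in Tbx3-high cells, without overlap. The sources used here do not say which transcripts each probe detects.

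Ndufa3, an accessory subunit of the membrane arm, read 6.09 and 6.03 on the null and 5.36 and 5.30 on the wild-type arrays, a change of 0.73 ± 0.10 (SE; adjusted p = 7.02e-05) and 0.54 after quantile scaling. Its dimmer probe changed in the same direction here, by 0.97. Ndufb10 (17:24859019-24859078, mm9) read 5.999 and 6.06 against 5.42 and 5.53, a change of 0.56 ± 0.11 (SE; adjusted p = 0.00118). In mESC its arrays overlapped, at 5.24, 5.24, 5.38 and 5.48 in Tbx3-low and 5.65, 5.42, 5.50 and 5.47 in Tbx3-high cells (0.17; adjusted p = 0.0998). Ndufa1 read 6.31 and 6.25 on the null and 5.65 and 5.85 on the wild-type arrays, so it was higher there by 0.53 ± 0.09 (SE; adjusted p = 0.000413) and by 0.32 after quantile scaling. Of the core subunits, Ndufs8 rose by 0.44, from 3.14 and 3.40 to 3.74 and 3.68, and the flavin-binding Ndufv1 by 0.36. Without wild-type array 1 Ndufs8 was at 0.31 (adjusted p = 0.0675). The Ndufv1 call (adjusted p = 0.049) held in 4 of 13 alternative settings. Its change was 0.15 without wild-type array 1, 0.23 without null array 1 and 0.56 without wild-type array 2, and the replicate block gave an adjusted p of 0.0781. Further rises were 0.54 for Ndufa11, 0.49 for Ndufb3, 0.45 for Ndufb6, 0.44 for Ndufa13 and Ndufb2, 0.41 for Ndufs6 and 0.39 for Ndufa9. Ndufa10, Ndufb9, Ndufb5, Ndufa5, Ndufs5 and Ndufc2 rose by 0.31 to 0.35. For Ndufa11 the change was 0.25 without wild-type array 1 (adjusted p = 0.201), 0.46 without null array 1 (adjusted p = 0.106) and 0.83 without wild-type array 2. Ndufb9 was at 0.22 without null array 1 and Ndufa5 at 0.18 without wild-type array 1, both then uncalled. After quantile scaling 8 complex I subunits remained higher (Ndufa1, Ndufa3, Ndufa9, Ndufa11, Ndufb3, Ndufb10, Ndufs8 and Ndufv3), and Ndufa7 and Ndufb8 were called lower, by -0.28 and -0.32.

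In complex II, Sdhb and Sdhd were higher on the null arrays. Sdhb, which carries the iron-sulphur centres (4:140535052-140535108, mm9), read 6.22 and 6.15 against 5.69 and 5.80, without overlap, a change of 0.44 ± 0.09 (SE; adjusted p = 0.00233) and 0.22 after quantile scaling. The mESC arrays of Sdhb overlapped, at 5.76, 5.68, 5.83 and 5.75 in Tbx3-low and 5.69, 5.88, 5.88 and 5.83 in Tbx3-high cells. Sdhd rose by 0.32 (0.20 and uncalled without wild-type array 1), the other anchor Sdhc changed by 0.39 without a call (4.35 and 4.46 against 4.10 and 3.92; adjusted p = 0.0633), and Sdha by 0.02. The dimmer Sdhc probe changed by 0.61, from 4.03 to 4.44 on the null and from 3.61 to 3.63 on the wild-type arrays, without overlap.

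In complex III, 3 of 8 subunits rose (37.5%): the Rieske protein Uqcrfs1 by 0.39, the small subunit Uqcrq by 0.35 and Uqcr11 by 0.34. Uqcrfs1 (13:30632363-30632422, mm9) read 5.42 and 5.32 on the null and 4.95 and 5.01 on the wild-type arrays, a change of 0.39 ± 0.10 (SE; adjusted p = 0.00573). In mESC it overlapped, at 5.05, 4.996, 5.18 and 5.14 in Tbx3-low and 4.92, 4.96, 5.09 and 5.07 in Tbx3-high cells. Uqcrb, the leading complex III gene in mESC, read 6.48 and 6.41 against 6.30 and 6.46, with overlap (0.07; adjusted p = 0.594). After quantile scaling no complex III subunit was called.

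In complex V, 8 of 15 subunits rose (53.3%), with representatives of the head, stator and membrane part. Atp5a1, the alpha subunit of the head, rose by 0.35, the gamma subunit Atp5c1 by 0.30 and the delta subunit Atp5d by 0.38. The stator subunits Atp5o and Atp5j rose by 0.35 and 0.31, and the ring gene Atp5g3 by 0.29. The membrane subunits Atp5j2 and Atp5l rose by 0.39 and 0.27. Atp5j2 (5:145944570-145944629, mm9) read 7.19 and 7.16 on the null and 6.67 and 6.90 on the wild-type arrays. In mESC it read 6.30, 6.41, 6.34 and 6.34 in Tbx3-low and 6.46, 6.64, 6.49 and 6.66 in Tbx3-high cells, so its groups were apart in both cell types (adjusted p = 0.0359 in mESC and 0.00747 in iPSC). The iPSC change was 0.28 without wild-type array 1 (adjusted p = 0.083). The mESC call did not hold without Tbx3-high array 2 or 4 or Tbx3-low array 1, 3 or 4. Atp5e read 6.73 and 6.77 against 6.43 and 6.54, uncalled (0.26; adjusted p = 0.166). None of the 15 was called after quantile scaling.

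Complex IV was the only complex with lower calls after 75th-percentile scaling: 3 of its 18 subunits were lower on the null arrays (16.7%) and 4 higher (22.2%). The lower ones were all tissue-restricted isoforms. Cox7a1 read 3.35 and 3.36 on the null and 4.72 and 4.64 on the wild-type arrays, and fell by 1.33 ± 0.10 (SE; 2.51-fold; adjusted p = 7.61e-07), or by 1.44 after quantile scaling. In the direction of more labelled Tbx3, Cox7a1 was higher in both cell types, in Tbx3-high mESC and on wild-type iPSC arrays. Ndufa1 was lower in both. Of the fibroblast markers, Col1a1, Pdgfrb and Fn1 were called in the same directions as Cox7a1 in both comparisons. Tagln was called in the opposite direction in both (-1.365 in mESC and 0.563 in iPSC), and Acta2 in iPSC (1.163). The summed fibroblast markers without Fn1 overlapped between the groups in each. Without Thy1 as well, the sum was lower in Tbx3-high cells, at 2.92 to 3.52 against 4.26 to 5.5. The part of fibroblasts in these changes was not tested. Cox6a2, the heart and muscle isoform of subunit 6a (7:135349160-135349219, mm9), read -5.29 and -4.89 on the null and -3.58 and -3.26 on the wild-type arrays, and fell by 1.67 ± 0.18 (SE; adjusted p = 1.62e-05). These levels lie far below the array's 75th percentile, and with normexp background correction the change was -0.41 (adjusted p = 0.0153). In mESC its arrays overlapped, at -2.83, -2.74, -2.59 and -2.43 in Tbx3-low and -2.31, -2.80, -2.51 and -2.64 in Tbx3-high cells. Cox8c fell by 0.60, from -1.90 and -1.89 to -2.46 and -2.52, and leaving out any of the 4 iPSC arrays took its adjusted p to between 0.0724 and 0.0901. The widely expressed partners Cox7a2, Cox8a and Cox4i1 rose by 0.51, 0.29 and 0.29, and Cox6a1 changed by 0.33 without a call. Cox5a also rose, by 0.33. The uncalled isoforms Cox4i2, Cox6b2 and Ndufa4l2 changed by -0.20, -0.02 and -0.38. Over the 6 tissue isoforms the median change was -0.49, and over their 6 widely expressed partners 0.29, or -0.50 and 0.13 after quantile scaling; these groups were drawn up after the values were seen.

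The 2 complex IV members left out for low signal were also tissue isoforms. Cox7b2 was well above background on 2 of 4 Tbx3-high, 3 of 4 Tbx3-low and all iPSC arrays. Cox8b was above it on 0 of 8 mESC arrays, 1 null array and both wild-type arrays.

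**Figure D4:**
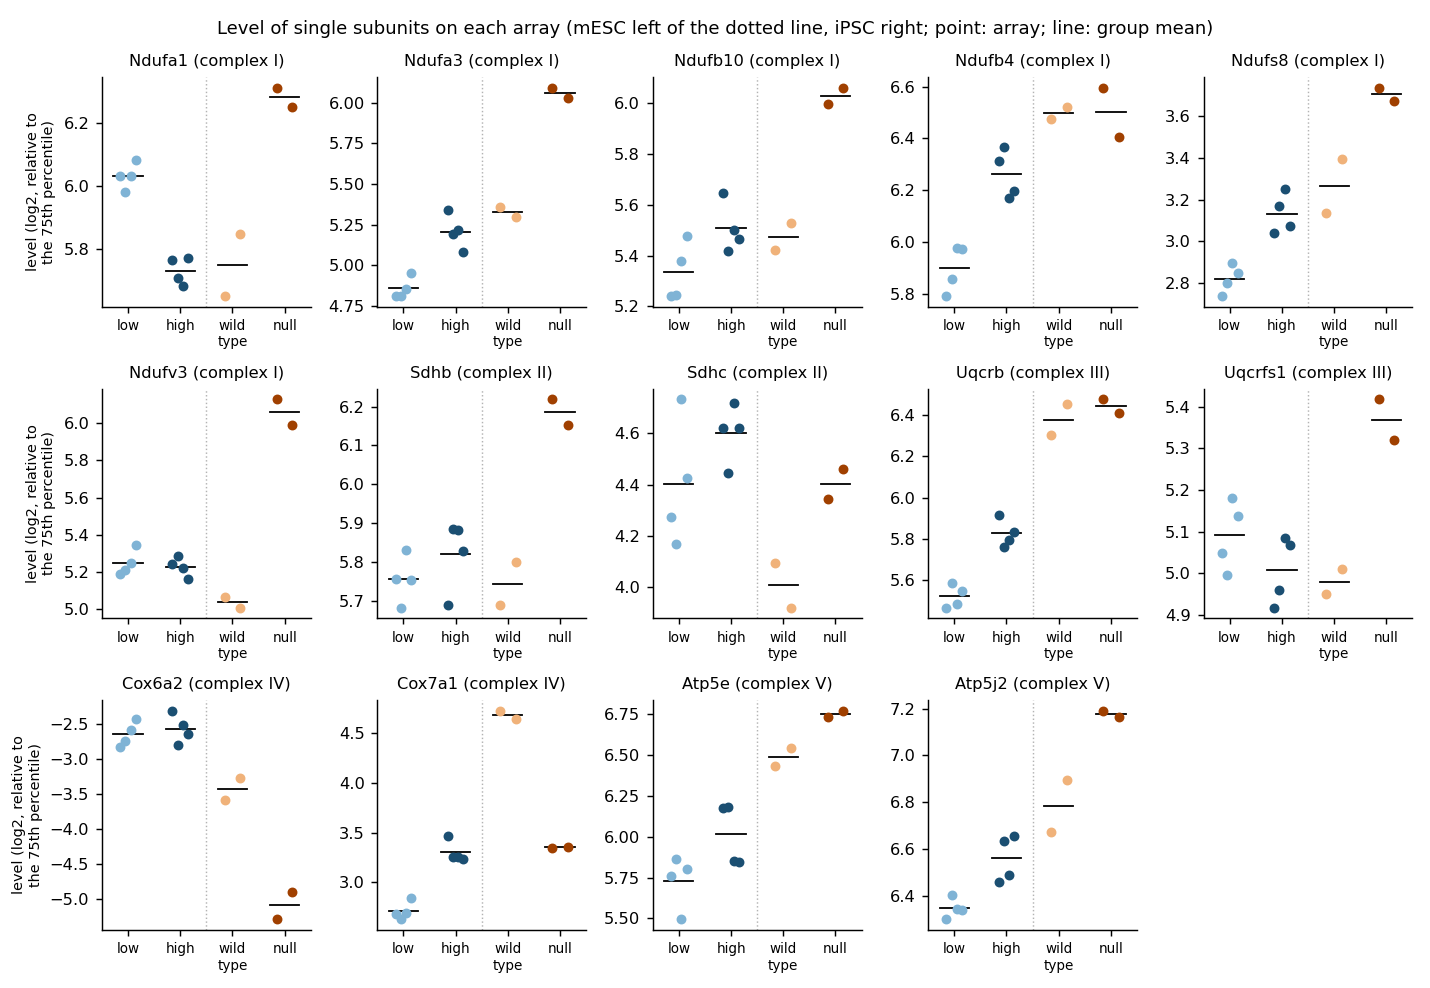
Level of 14 subunits on each array (log2 relative to the 75th percentile; point: array; line: group mean; mESC left and iPSC right of the dotted line), with vertical axes that differ between panels and do not start at 0. Cox7a1 lies higher in Tbx3-high than in Tbx3-low cells and lower on the arrays labelled Tbx3-null, at 3.35 and 3.36, than on the wild-type arrays, at 4.72 and 4.64, whereas Ndufa1 shows the opposite pattern.

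The mESC and iPSC comparisons share no arrays. Of the 81 subunits, 52 were called in at least 1 of them and 29 in neither. Ndufa3, Ndufb6, Ndufs8, Uqcr11, Cox5a and Atp5j2 were higher both in Tbx3-high mESC and on the null iPSC arrays. These 6 were 28.6% of the 21 mESC higher calls, whereas 44.4% of all 81 subunits were called higher in iPSC. They were 16.7% of the 36 iPSC higher calls, whereas 25.9% of the 81 were called higher in mESC. Shared calls over all genes were not counted, so the overlap is not read as a shared response. After quantile scaling 2 of them, Ndufa3 and Ndufs8, were shared. Cox7a1 and Cox8c rose in Tbx3-high mESC and fell on the null arrays, and Ndufa1 did the reverse. Under quantile scaling Cox7a1, Ndufa7 and Ndufb8 had the first pattern and Ndufa1 again the reverse, while Cox8c was called in neither comparison. Over the 81 subunits the changes of the comparisons had a Pearson r of -0.30 and a Spearman rho of -0.20. This is a description across genes, which are not independent replicates. Among called subunits with several probes, all probes had 1 direction for 7 of 8 in mESC (Ndufa3 being the exception) and for 13 of 14 in iPSC (Ndufv3).

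**Figure D5:**
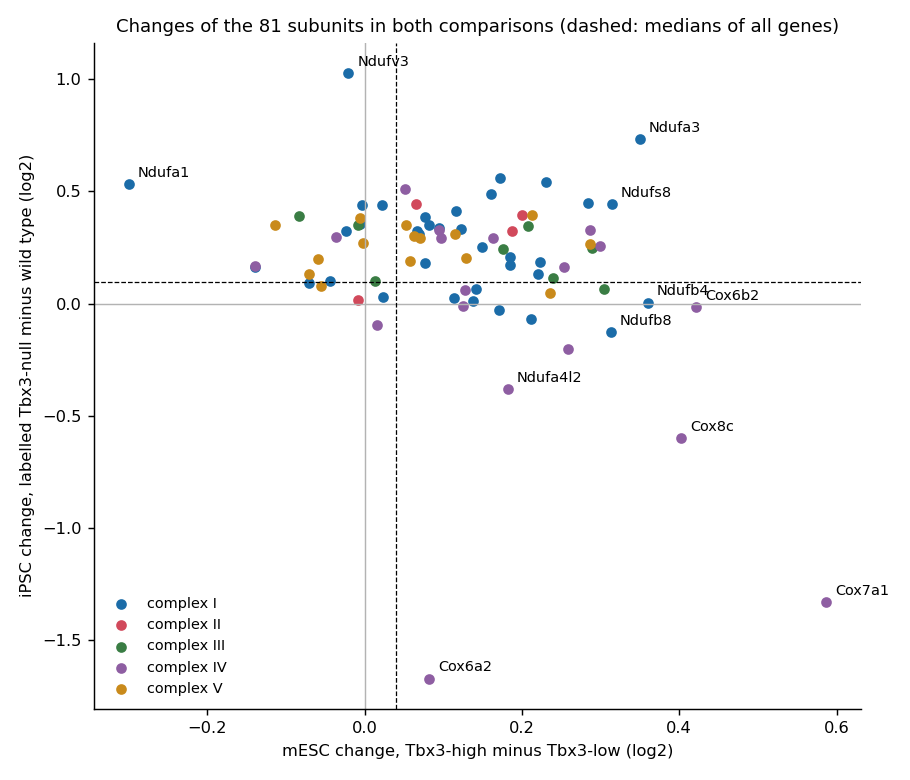
Change of each of the 81 subunits in mESC (horizontal, Tbx3-high minus Tbx3-low, log2) against that in iPSC (vertical, labelled Tbx3-null minus wild type, log2), coloured by complex, with dashed lines at the all-gene medians of 0.04 and 0.10. Most subunits lie above 0 on both axes, Cox7a1 and Cox8c lie at the lower right and Ndufa1 at the upper left.

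The difference between the comparisons was tested with both turned from less to more labelled Tbx3, as (Tbx3-high minus Tbx3-low) minus (wild type minus null). A positive value means a higher change in mESC. It was positive and called for 42 subunits (51.9%) against 24.3% of all genes, and negative for 2 (2.47%) against 14.2%. All genes had a median difference of 0.13, which became 0.04 after quantile scaling and 0.02 in the series table, and the subunits one of 0.36, which became 0.15 and 0.13. Of all called genes 63.1% were positive, against 52.7% and 50.4% under those scalings. There 13 (16.0%) and 11 (13.6%) subunits were called positive, against 2743 and 2612 of the 14765 genes, so no excess was seen. Without null array 1 or wild-type array 1 there were 25 or 23. Ndufa3 (1.08 ± 0.12, SE), Ndufv3 (1.01 ± 0.11), Ndufs8 (0.76 ± 0.13), Ndufb10 (0.73 ± 0.13) and Atp5j2 (0.61 ± 0.12) were positive, with adjusted p from 2.31e-05 to 0.00231. Cox7a1 (-0.74 ± 0.13; adjusted p = 0.000682) and Cox6a2 (-1.59 ± 0.23; adjusted p = 0.000195) were negative. All of these except Cox6a2 kept their call under every alternative tried; Cox6a2 was -0.34 (adjusted p = 0.0986) with normexp. Sdhb (0.51), Sdhc (0.59), Atp5e (0.55), Uqcrb (0.37) and Ndufb4 (0.36) were also called, but none of these after quantile scaling (adjusted p 0.054 to 0.308). The Uqcrb call was lost without null array 1 (0.34) or wild-type array 1 (0.29), and that of Atp5e without either null array (0.57 and 0.53) or wild-type array 1 (0.50). The Ndufb4 call was lost without null array 1 (0.27), either wild-type array (0.34 and 0.39), or array 1 or 2 of either mESC group (0.33 to 0.35). The Sdhc call was lost without either null array, wild-type array 2, Tbx3-high array 3 or Tbx3-low array 1, and its value lay between 0.37 and 0.84 over all alternatives. For Ndufa1 the difference was 0.23 (adjusted p = 0.112), and 0.33 without wild-type array 2 (adjusted p = 0.0446).

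Of the 13 subunits encoded by mitochondrial DNA, none was higher in either comparison (limma, Benjamini-Hochberg). In mESC ND5 fell by 0.47 and ATP6 by 0.28, with a median change of -0.09 over the 13. In iPSC ND4 fell by 0.38, with a median of -0.15 and 3 lower calls after quantile scaling. Of these 13, 2 were thus lower in mESC and 1 in iPSC. These counts and those of the lists that follow stand against 19.8% of all genes higher and 15.0% lower in mESC, and 26.3% and 16.8% in iPSC. With quantile scaling the shares of all genes were 18.3% and 17.8% in mESC and 21.9% and 18.9% in iPSC. Of 44 measured assembly factors, 6 rose and 1 fell in mESC (4 and 2 after quantile scaling) and 16 rose and 3 fell in iPSC (13 and 4). The largest mESC changes were Cox20, a chaperone of complex IV, by 0.68, Lrpprc, which stabilises mitochondrial mRNAs, by -0.38, and Acad9, a complex I assembly factor, by 0.35. In iPSC they were Ecsit, a complex I assembly factor, by 0.98, Fmc1, an ATP synthase assembly factor, by 0.90, and Uqcc2, which acts on complex III, by 0.88. Of 18 measured regulators of mitochondrial biogenesis 1 rose and 2 fell in mESC (1 and 3 after quantile scaling) and 6 rose and 2 fell in iPSC (4 and 3). In iPSC Nrf1 rose by 0.85 and the nuclear receptor Esrra by 0.50, while the mitochondrial exonuclease Mgme1 fell by 0.88. Gabpa and Yy1, whose motifs were counted above with that of NRF1, changed by -0.264 and -0.151 in iPSC, both uncalled. Gabpa was called lower there after quantile scaling (-0.335, adjusted p = 0.0224). The part of these factors in the subunit changes was not tested. In mESC the mitochondrial transcription elongation factor Tefm fell by 0.59, the DNA polymerase Polg rose by 0.41 and the topoisomerase Top1mt fell by 0.18. Of 21 measured electron carriers and exchangers 6 rose and 4 fell in mESC (5 and 6 after quantile scaling) and 8 rose and 1 fell in iPSC (6 and 3). Pdss2 and Pdss1, which make the ubiquinone tail, rose by 0.84 and 0.61 in mESC. Cyct, the testis cytochrome c, fell by 0.50 in mESC and by 1.73 in iPSC, where Coq5 of ubiquinone synthesis rose by 0.85 and the carrier Ucp2 by 0.76. Of 16 enzymes of the citric acid cycle and pyruvate dehydrogenase, Idh3b rose by 0.30 and Pdha1 fell by 0.31 in mESC. In iPSC 6 rose and 2 fell (4 and 2 after quantile scaling), led by Suclg2 (-0.81), Fh1 (0.59) and Ogdh (0.58).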

How the data were processed

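Total RNA of mouse ESC and iPSC was extracted with RNeasy kits and 50 ng per sample was labelled with Cy3, per the labels' protocols. The authors deposited scanner intensity per spot (processed signal, Agilent Feature Extraction 10.7.3.1, per the file headers) and a series table of log2 values, deposited with its scale and centring unstated. The columns of that table have medians of 6.61 for mESC and 6.58 to 6.59 for iPSC and follow the log2 mean signal (r of at least 0.9988), and its log2 values served as an alternative. Control spots and outlier flags were left out, spots of a probe averaged, and levels expressed as log2 signal relative to the 75th percentile of the same array over 55681 probes. Probes were named by RefSeq accession (27737), symbol (3349) or synonym (301). A gene needed a probe well above background on all 12 arrays. Probe positions are those of the files (mm9), and whether a probe lies in an exon or UTR was not annotated here.

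All 12 arrays entered 1 fit with 4 group means (limma 3.58.1, R 4.3.3, eBayes, Benjamini-Hochberg, 8 residual degrees of freedom). The code was tested on simulated data. The number of arrays limits the precision, and correlations within groups were checked. Members and gene lists were chosen with earlier results of these data known. Every subunit called in either comparison is named; values per array are given for Ndufa1, for the largest call of each complex in each comparison (or the largest change where none was called) and for the subunits with the smallest p of the difference, and up to 3 called genes per other list. Values of Cox8c, Gabpa and Yy1 were added after they were seen. Arrays with equal replicate numbers had deviations with correlations of 0.125 to 0.30 in mESC and 0.055 in iPSC. Each mESC pair also shared a slide row, so a pairing and a row effect cannot be told apart. The main fit used no block. Alternatives were quantile scaling, normexp (offset 50), the series table, 2 other filters on dim probes, the mean of probes, cell types fitted alone, the replicate number or slide row as a block, each row alone, and leaving out each array.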

Additional observations from a re-analysis of the deposited data

Results flagged for a closer look

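Among the 4 Tbx3-high arrays, Cox7a1 read 3.47 on array 1 and 3.24 to 3.25 on the others, a gap large against the group's range. Chance alone gives about 1 such gap in 20 groups. Without that array the Cox7a1 call held.

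The change along labelled Tbx3 differed between mESC and iPSC, by the test of the difference itself, for 12 of the subunits with values per array. Those subunits were chosen partly by this difference or by a large change in 1 comparison, so their number is not read as a result. Over all genes 24.3% were called positive and 14.2% negative. The differences were 1.08 for Ndufa3, 0.73 for Ndufb10, 0.36 for Ndufb4, 0.76 for Ndufs8 and 1.01 for Ndufv3 in complex I, 0.51 for Sdhb and 0.59 for Sdhc in complex II, and 0.37 for Uqcrb in complex III. They were -1.59 for Cox6a2 and -0.74 for Cox7a1 in complex IV, and 0.55 for Atp5e and 0.61 for Atp5j2 in complex V. After quantile scaling Ndufa3 (0.89), Ndufb10 (0.51), Ndufs8 (0.57), Ndufv3 (0.81), Cox6a2 (-1.45), Cox7a1 (-0.89) and Atp5j2 (0.40) were still called.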

How the results depend on the processing

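Of 188 values recomputed for the counts and medians under the alternatives, 166 stayed within the limits used here and 22 did not; where a count moved, the cause was not tested. In mESC the 21 higher subunits became 12 with no filter on dim probes, 10 in slide row 1 alone and 2 in slide row 2 alone, and 12 to 19 when leaving out 1 array. Higher calls over all genes were 2509 of 23796 with no filter, 1973 of 14765 in row 1 and 1774 in row 2. The single lower call became 0 in row 1 alone (Ndufa1, at -0.27), and the genes called over the whole table became 3343 in row 2 alone. The median change of 0.12 was 0.164 in row 1 and 0.063 in row 2, and 0.10 to 0.14 leaving out 1 array. In iPSC the 36 higher subunits became 20 with the iPSC arrays fitted alone, 10 after quantile scaling and 11 in the series table, where 7 were lower, and 16 to 35 leaving out 1 array, with 2 to 3 lower. The median of 0.26 became 0.064 and 0.022 in those scalings. For the difference between the comparisons the higher subunits became 13 after quantile scaling and 11 in the series table, and 23 to 45 leaving out 1 array, and the lower ones 1 with normexp. The difference for Ndufa1 turned from 0.23 to -0.006 after quantile scaling (adjusted p = 0.965). Genes called over the whole table ranged leaving out 1 array from 4478 to 4744 in mESC, 4767 to 5559 in iPSC and 4370 to 5548 for the difference. Whether equal replicate numbers mark pairs is not known. With the replicate number as a block there were 19 higher and 1 lower subunit in mESC and 36 and 4 in iPSC. For the difference there were 39 and 2. The calls of Ndufa7 and Ndufs4 in mESC, of Ndufb4 in the difference and of Ndufv1 in iPSC were lost. Of the named calls, Cox7a1 in mESC and 9 of 39 in iPSC (Ndufa1, Ndufa3, Ndufa9, Ndufb3, Ndufb10, Ndufv3, Sdhb, Cox6a2 and Cox7a1) held under every alternative tried. Cox8c, Cox6a2 and Cox4i2 had signals below the 75th percentile on every array, which limits how firmly their changes can be read.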

Other observations

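Of the 9 genes that share the names but are not subunits, Ndufaf3 and Atp5sl rose in Tbx3-high mESC, by 0.19 and 0.21. On the arrays labelled Tbx3-null Ndufaf1 rose by 0.59, Ndufaf3 by 0.55, Ndufaf7 by 0.40, Atp5sl by 0.36 and Ndufaf2 by 0.30. Ndufaf4, Ndufaf5, Ndufaf6 and Atp5s were called in neither comparison. After quantile scaling the mESC call of Ndufaf3 was lost (0.16; adjusted p = 0.0564) and Ndufaf6 was called lower in mESC (-0.20; adjusted p = 0.0159). After quantile scaling the iPSC changes of Ndufaf1, Ndufaf3 and Atp5sl were 0.45, 0.46 and 0.22 and were still called.

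Among the subunits with several probes, Cox7c, a small subunit of complex IV, differed between its probes in iPSC. Its brightest probe changed by -0.10 and the others by 0.36 and 0.27. The brightest probe stands for the gene in the counts.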
